A study of Mus musculus with 10 samples.

Results

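The 9 genes described here encode transcription factors that set intestinal identity and the differences between its proximal and distal parts: Hnf4a, Hnf4g, Cdx1, Cdx2, Gata4, Gata6, Onecut2, Onecut3 and Pdx1. They were taken by symbol from a table of 45707 genes, and each symbol matched 1 row. The table came from RNA-sequencing of the jejunum of 10 male littermate mice, 5 Vil-Cre controls and 5 Vil-Cre:NDI1 mice, with 1 library per mouse. The comparison asks whether expression of NDI1, a yeast NADH dehydrogenase, changed these genes. Both genotypes carried a Cre transgene driven by the Vil1 promoter, which is active in intestinal epithelium. Vil-Cre:NDI1 mice also carried 1 NDI1 allele behind a lox-stop-lox sequence at the ROSA26 locus, from a cross of homozygous Vil-Cre with heterozygous NDI1 mice. Mice of both genotypes were 8 to 12 weeks old, were fasted for 16 to 18 h, received water by gavage and were sampled 1 h later. Flushed jejunal tissue was used rather than isolated epithelium, so RNA from muscle, stroma and immune cells is part of every value. In such tissue, fewer cells of a type and less RNA per cell cannot be told apart.

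HNF4, CDX and GATA factors act together at the enhancers of enterocyte genes. CDX1 and CDX2 are homeodomain proteins that keep epithelium intestinal rather than gastric, and HNF4A and HNF4G are nuclear receptors that share the activation of brush border and lipid genes. GATA4 is made in the proximal small intestine and fades towards the distal ileum, where its loss from the jejunum is known to allow ileal genes, whereas GATA6 is present along the whole length. ONECUT2 and PDX1 are most abundant in the duodenum, and PDX1 and ONECUT3 are otherwise known from the pancreas, the duodenum and neurons.

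Values are normalized counts, that is, reads per gene divided by a size factor for the library, and the libraries held 10145705 to 12371530 reads on genes. NDI1 had 0 reads in 4 control libraries and 1 read in Vil-Cre 3, against 982 to 2575 normalized counts in Vil-Cre:NDI1 mice. The 10 pan-epithelial markers summed to between 199614 and 241962 normalized counts in controls and between 208555 and 271041 in Vil-Cre:NDI1 mice. Of 8 colonic genes, 4 had no read in any library, Hoxb13 among them, and Car1 had reads in 1 mouse, although Slc26a3 reached 1953 to 2962. The 10 gastric genes summed to 39.1 or less in every mouse. The 9 pancreatic acinar markers summed to at most 6.54, with 5 at 0 reads throughout. Vil-Cre 5 stood apart from the other libraries, with 359906 normalized counts summed over 11 enterocyte markers where the other 9 mice had 515056 to 721325. Factor results are therefore also given without it.

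None of the 7 factors abundant enough to test differed between the genotypes at an adjusted p under 0.05. The test was limma on log2(normalized count + 1), adjusted by Benjamini-Hochberg over the 14301 genes with at least 10 normalized counts in at least 5 mice. It called 1 gene, NDI1, which is 0.00699% of the genes tested. At an unadjusted p under 0.05, 1 of the 7 factors (Gata6) passed, beside 4.24% of all genes tested, and 1 gene of 7 is too few to set against that share. No factor had groups free of overlap, beside 0.699% of all genes tested. On reads recovered from the table, DESeq2 called 0 of 9 factors (Cdx1 and Gata6 at an unadjusted p under 0.05), with 0.183% of its genes called, and edgeR called 0 of 7 (Gata6 at an unadjusted p under 0.05), with 0.007% called. Onecut3 and Pdx1 did not reach the minimum for limma.

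**Figure D1:**
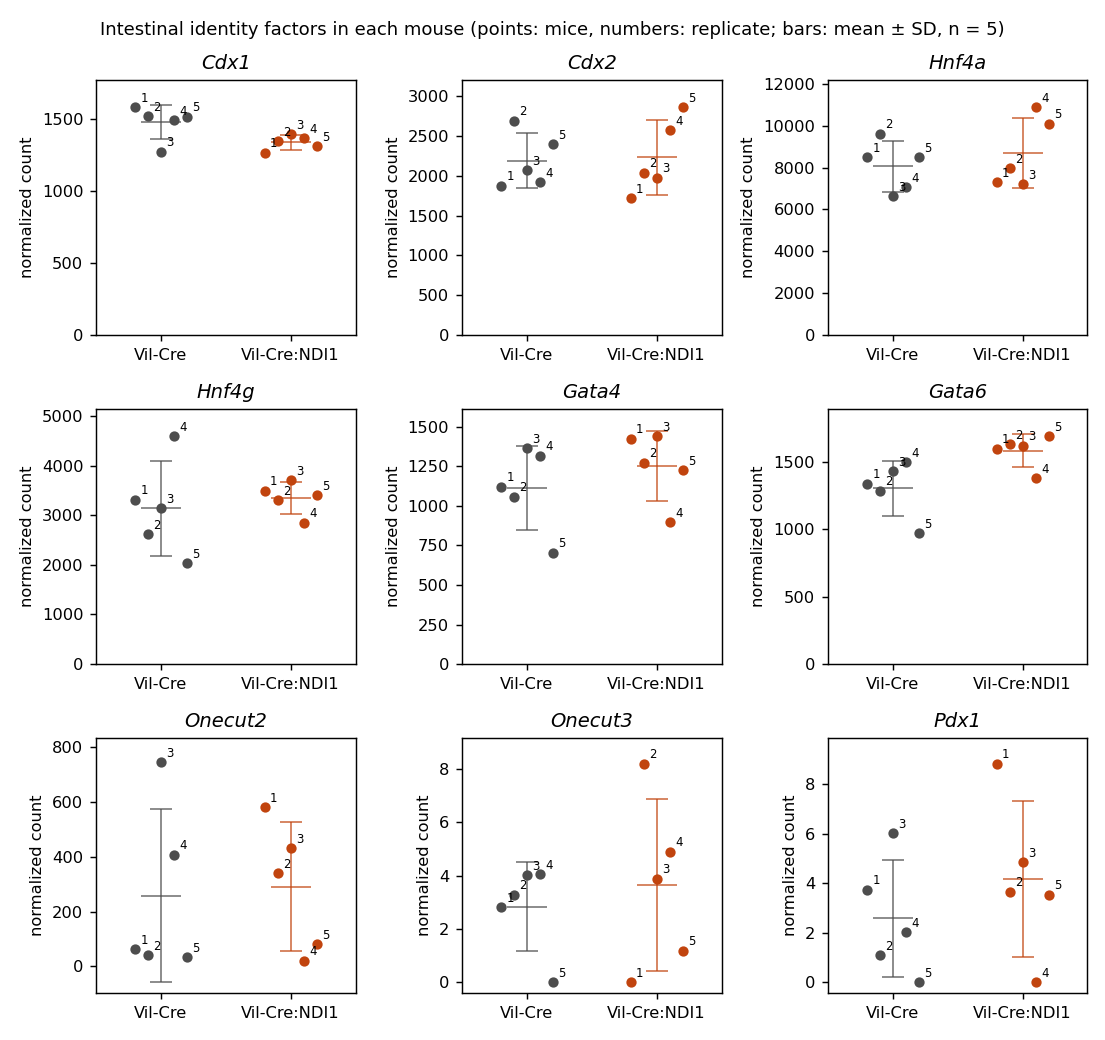
Normalized count (vertical axes, linear) of each of the 9 factors in 5 Vil-Cre (grey) and 5 Vil-Cre:NDI1 (orange) mice, with replicate numbers beside the points and bars for the mean ± SD. The genotypes overlap in every panel, Onecut2 separates into low and high mice in both genotypes, and Onecut3 and Pdx1 stay below 9 normalized counts.

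Per length, the HNF4 and CDX genes were the most abundant factors, and the order of the levels ran Hnf4a, Hnf4g, Cdx2, Cdx1, Gata4, Gata6, Onecut2, Pdx1 and Onecut3. Over the 10 mice, the level per kb of exon was 1734 ± 295 normalized counts per kb for Hnf4a (mean ± SD) and 1236 ± 259 for Hnf4g. It was 978 ± 173 for Cdx2 and 802 ± 64.3 for Cdx1. These 4 neighbours overlapped: Hnf4a exceeded Hnf4g in 9 of 10 mice, Hnf4g exceeded Cdx2 in 7, and Cdx2 exceeded Cdx1 in 8. Below them came a gap, since the lowest Cdx1 level was 722 per kb and the highest Gata4 level was 370. Gata4 stood at 303 ± 61.5 per kb and Gata6 at 222 ± 33.3, and Gata4 was the higher of these in 10 of 10 mice although their ranges overlapped. Before division by length, Gata6 had the higher mean, 1446 normalized counts against 1183. The order of this pair therefore rests on the annotated exon lengths, 6508 bases for Gata6 and 3904 for Gata4. Onecut2 was 13.2 times lower than Gata6 in the mean, with 16.9 ± 16.2 per kb, and Pdx1 and Onecut3 had 1.56 ± 1.28 and 0.676 ± 0.515. Pdx1 exceeded Onecut3 in only 6 of 10 mice, so the order of this last pair is not set beyond the spread.

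**Figure D2:**
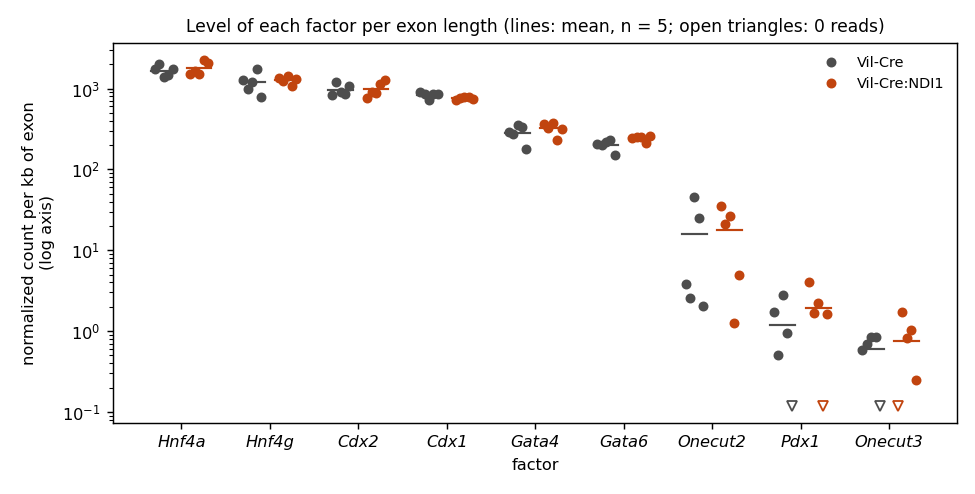
Level of each factor as normalized counts per kb of exon (vertical axis, log scale), ordered from left to right by the mean over 10 mice, for Vil-Cre (grey) and Vil-Cre:NDI1 (orange) mice, with a line at each mean and open triangles for 0 reads. The HNF4 and CDX genes lie between 722 and 2255 per kb, the GATA genes between 149 and 370, and Onecut2 spreads from 1.27 to 45.9.

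Hnf4a (ENSMUSG00000017950) lies on the plus strand of GRCm38 at chr2:163506808-163572910 and is the most abundant of the factors, above 98.9% of the genes tested by mean normalized count. It has alternative promoters whose annotated starts in RefSeq are 40298 bases apart, and the table gives a single value per gene, so their use was not resolved. Its upstream promoter is shown because, of the windows searched, it alone held any of the letter patterns searched. The window runs from 250 bases before to 50 after the start and is written 5′ to 3′ on the strand of the gene (RefSeq, GRCm38.p6). RefSeq windows were searched for 3 of the 9 factors, Hnf4a, Cdx2 and Pdx1. No window was available for Hnf4g, Gata4 and Onecut3. The windows of Cdx1, Gata6 and Onecut2 were left out of the search, so whether they hold these patterns was not tested. Capitals mark the letters GATAA (the core bound by GATA factors) and ATCAAT (ONECUT factors), searched on either strand.

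The upstream start of Hnf4a is in chr2:163506607-163506906, the downstream start in chr2:163546905-163547204, both on the plus strand.
Hnf4a upstream: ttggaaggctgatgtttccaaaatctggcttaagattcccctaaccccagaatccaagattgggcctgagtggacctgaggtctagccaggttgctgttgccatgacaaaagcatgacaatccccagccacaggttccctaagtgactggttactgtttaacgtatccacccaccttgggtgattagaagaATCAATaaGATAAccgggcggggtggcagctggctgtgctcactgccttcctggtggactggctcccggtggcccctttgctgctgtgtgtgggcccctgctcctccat
The upstream window of Hnf4a held ATCAAT and GATAA next to one another, beginning 59 and 51 bases before the start. The downstream window and those of Cdx2 and Pdx1 held neither. Among 32851 mouse promoter windows of this length, 25.4% held GATAA and 7.54% ATCAAT on either strand. Also searched were TTTATG, read by CDX factors, in 11.9% of windows, and AAGTCCA, part of the HNF4 site, in 4.17%, and neither was in these 4 windows. These are matches of letters and show nothing of binding in these mice.

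Hnf4a was at 8482, 9612, 6629, 7056 and 8487 normalized counts in Vil-Cre mice 1 to 5. In Vil-Cre:NDI1 mice 1 to 5 it was at 7306, 7969, 7211, 10889 and 10097. The highest values were in Vil-Cre:NDI1 4 and 5 and the lowest in Vil-Cre 3 and 4, and the groups overlapped. The means were 8053 ± 1206 and 8694 ± 1691 (SD, n = 5 each), a log2 fold change of 0.10 with a standard error of 0.15 (limma, 95% confidence interval −0.22 to 0.42, adjusted p = 0.998). It was 0.0159 without Vil-Cre:NDI1 4, 0.0355 without Vil-Cre 3, 0.1695 without Vil-Cre 2 and 0.0013 with array weights. Hnf4a is also a defining factor of liver. The 10 hepatocyte markers, all with reads, summed to 78.9 to 1765 normalized counts in controls and 66.7 to 293 in Vil-Cre:NDI1 mice, with Alb at 15.2 to 763 and 0.98 to 47.0, and 0 of the 6 tested passed limma (3 at an unadjusted p under 0.05, where 4.24% of all genes were, and 1 by DESeq2). All 6 were lower in Vil-Cre:NDI1 mice, with a median log2 fold change of −1.57 beside 0.01 over all genes tested. Their part in the Hnf4a values was not tested. The antisense gene Hnf4aos overlaps Hnf4a but shares no exon bases with it.

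Hnf4g (ENSMUSG00000017688, chr3:3508030-3658052, plus strand) is the partner whose loss in intestine is largely covered by Hnf4a. It was at 3319, 2622, 3147, 4605 and 2040 normalized counts in Vil-Cre mice 1 to 5. The Vil-Cre:NDI1 mice, in the same order, were at 3501, 3305, 3713, 2851 and 3406. Vil-Cre 4 and Vil-Cre 5 held the highest and the lowest value, and all 5 Vil-Cre:NDI1 mice fell between them. The coefficient of variation was 30.4% in controls and 9.53% in Vil-Cre:NDI1 mice. The log2 fold change of 0.14 (limma standard error 0.18, adjusted p = 0.998) became −0.0037 without Vil-Cre 5. The ratio of Hnf4a to Hnf4g per length was below 1 in Vil-Cre 4 only, at 0.835, and highest at 2.27 in Vil-Cre 5. Its log2 value differed by −0.0372 between the genotypes (Vil-Cre:NDI1 minus Vil-Cre), against an SD of 0.587 in controls and 0.397 in Vil-Cre:NDI1 mice.

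Cdx2 (ENSMUSG00000029646) and Pdx1 (ENSMUSG00000029644) are neighbours on chromosome 5, at chr5:147300805-147307270 on the minus strand and chr5:147269959-147275848 on the plus strand, with 25.0 kb between them. Cdx2, the main guardian of intestinal fate, was at 1873, 2692, 2069, 1921 and 2398 normalized counts in Vil-Cre mice 1 to 5. In Vil-Cre:NDI1 mice 1 to 5 it was at 1715, 2037, 1975, 2574 and 2861. The highest 3 values were in Vil-Cre:NDI1 5, Vil-Cre 2 and Vil-Cre:NDI1 4, the lowest was in Vil-Cre:NDI1 1, and the groups overlapped through most of their range. The difference was near 0, with a log2 fold change of 0.02 (limma standard error 0.15, 95% confidence interval −0.31 to 0.35, adjusted p = 0.999), and its sign turned under several settings, including libraries rescaled to equal totals. Pdx1 had at most 9 reads in any library. Its values were 3.74, 1.09, 6.01, 2.02 and 0 in controls and 8.82, 3.64, 4.84, 0 and 3.52 in Vil-Cre:NDI1 mice. Both mice with 0 reads, Vil-Cre 5 and Vil-Cre:NDI1 4, are compatible with up to 3 reads each, and the exact permutation test gave p = 0.532 (two-sided). At this depth a difference in Pdx1 was not detectable.

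The proximal gene Sct, which encodes the hormone secretin, was at 132 to 189 normalized counts in the 10 mice, and the duodenal calcium channel gene Trpv6 had 1 read in 1 library and 0 in the others. A ratio of Pdx1 to Cdx2 was not formed because Pdx1 had 0 reads in 2 mice. The same held for Onecut2 to Onecut3.

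Cdx1 (ENSMUSG00000024619, chr18:61018862-61036199, minus strand), the CDX gene of the crypt, varied least of all the factors. It was at 1579, 1517, 1271, 1489 and 1512 normalized counts in Vil-Cre mice 1 to 5. Mice 1 to 5 of the Vil-Cre:NDI1 group were at 1264, 1343, 1391, 1364 and 1310. Of the controls, 4 were above every Vil-Cre:NDI1 mouse and Vil-Cre 3 was near their low end. The means were 1474 ± 118 and 1334 ± 49.6 (SD, n = 5 each), and the log2 fold change was −0.14 with a standard error of 0.07 (limma, 95% confidence interval −0.30 to 0.02, unadjusted p = 0.0867, adjusted p = 0.998). The two-sided exact permutation test gave p = 0.0476, unadjusted, where 0.00794 is the smallest these 252 assignments allow. The SD within genotype was 0.0937 on the log2 scale, above that of only 3.38% of genes tested, while counting alone gives a coefficient of variation of 2.66%. The ratio of Cdx1 to Cdx2 per length ran from 0.592 in Vil-Cre:NDI1 5 to 1.09 in Vil-Cre 1.

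Gata4 (ENSMUSG00000021944, chr14:63198922-63271692, minus strand) was at 1123, 1060, 1364, 1319 and 703 normalized counts in Vil-Cre mice 1 to 5. In Vil-Cre:NDI1 mice 1 to 5 it was at 1427, 1273, 1443, 896 and 1225. The lowest mice were Vil-Cre 5 and Vil-Cre:NDI1 4, and the genotypes overlapped over nearly their whole range. The log2 fold change was 0.19 with a standard error of 0.19 (limma, 95% confidence interval −0.22 to 0.59, adjusted p = 0.998), and 0.03 without Vil-Cre 5.

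Gata6 (ENSMUSG00000005836, chr18:11052064-11085635, plus strand), which is needed for crypt proliferation and for secretory lineages, came closest to a difference between the genotypes. It was at 1339, 1287, 1433, 1498 and 971 normalized counts in Vil-Cre mice 1 to 5. The corresponding Vil-Cre:NDI1 values were 1599, 1634, 1623, 1381 and 1695. All Vil-Cre:NDI1 mice but mouse 4 were above every control, and mouse 4 was above 3 of the 5 controls. The means were 1306 ± 204 and 1586 ± 120 (SD, n = 5 each), a log2 fold change of 0.29 with a standard error of 0.12 (limma, 95% confidence interval 0.04 to 0.55, unadjusted p = 0.027, adjusted p = 0.998), which fails the correction. The exact permutation test gave p = 0.0238 (two-sided, unadjusted), and among the 9 factors so tested only Gata6 and Cdx1 were under 0.05. The share of all genes under 0.05 by this permutation test was not counted, so that count cannot be set against it. By p, Gata6 was number 317 of the 14301 genes. It was 0.19 with a standard error of 0.08 once Vil-Cre 5 was left out (limma, adjusted p = 1.0). An RNA on the opposite strand, 1010001N08Rik, overlaps 93 bases or 1.43% of the Gata6 exons, and had a mean of 115 normalized counts. The ratio of Gata4 to Gata6 per length stayed between 1.08 and 1.59 in the 10 mice.

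**Figure D3:**
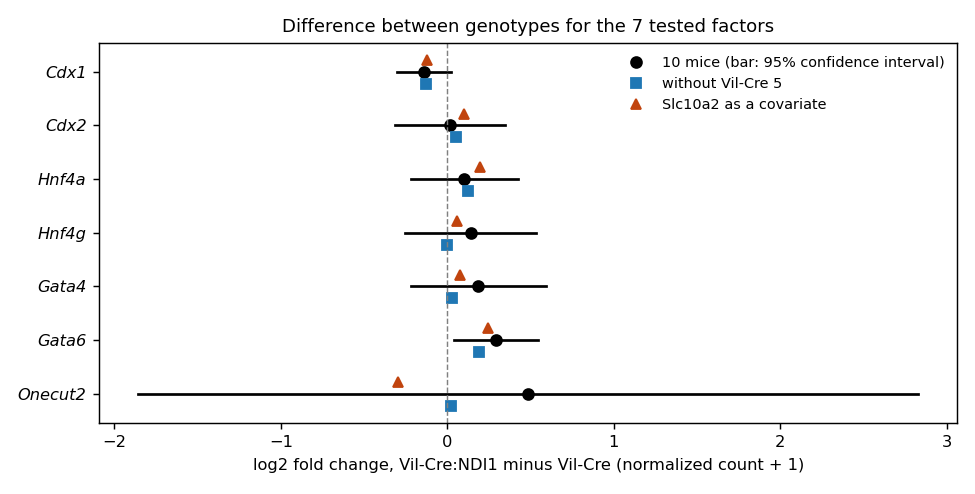
Log2 fold change (horizontal axis, Vil-Cre:NDI1 minus Vil-Cre) of the 7 factors tested, with black bars for the 95% confidence interval of the fit on 10 mice, blue squares without Vil-Cre 5 and orange triangles with Slc10a2 as a covariate. The interval of Gata6, 0.04 to 0.55, leaves out 0 before correction, and the interval of Onecut2, −1.86 to 2.83, is by far the widest.

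Onecut2 (ENSMUSG00000045991, chr18:64340020-64400987, plus strand), a proximal gut factor, varied more than any other factor, and this variation lay within the genotypes. In Vil-Cre mice 1 to 5 it was at 62.6, 41.6, 744, 408 and 33.0 normalized counts. In Vil-Cre:NDI1 mice 1 to 5 it was at 580, 341, 430, 20.6 and 81.0. The mice fell into separate sets, with 5 between 20.6 and 81.0 (Vil-Cre 1, 2 and 5 and Vil-Cre:NDI1 4 and 5) and 5 between 341 and 744 (Vil-Cre 3 and 4 and Vil-Cre:NDI1 1, 2 and 3). The highest value was 36.2 times the lowest, whereas counting error at its mean depth is 5.99%. Its SD of 2.01 on the log2 scale was above that of 99.3% of genes tested. The log2 fold change between genotypes was 0.49 with a standard error of 1.07 (limma, 95% confidence interval −1.86 to 2.83, adjusted p = 0.998), and 0.02 without Vil-Cre 5. Onecut3 (ENSMUSG00000045518, chr10:80494835-80517276, plus strand) had 0 to 9 reads in each library, with 0 in Vil-Cre 5 and Vil-Cre:NDI1 1, and gave an exact permutation p of 0.873 (two-sided).

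The mice that were high in Onecut2 were also the highest in Gata4 and the lowest in Hnf4a. In the 5 mice with high Onecut2, Gata4 was at 1273 to 1443 normalized counts, and in the other 5 at 703 to 1225. For Hnf4a the ranges were 6629 to 7969 and 8482 to 10889. Neither Cdx1, Cdx2, Hnf4g nor Gata6 divided the mice in this way, since their ranges overlapped between the same sets. These sets were read from the values of Onecut2 and are not groups of the study, so no test was made between them. How many of all genes tested divide the mice in this way was not counted, so the split of Gata4 and Hnf4a has no background to be set against.

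Some genes with known positions along the intestine divided the mice in the same way, and others did not. Of the tested genes of the regional lists, 1 of 8 duodenal genes (Slc46a1) and 4 of 7 ileal genes (Slc10a2, Fabp6, Slc51a and Slc51b) had ranges that did not overlap between the mice high and low in Onecut2. The share of all genes tested with such ranges was not counted, so these counts cannot be set against it. The ranges of Slc11a2 (583 to 913 and 556 to 804), Heph, Sct, Cubn, Amn and Osr2 overlapped, and duodenal Cybrd1 tended lower in the mice with high Onecut2 (13.7 to 25.2 and 22.4 to 37.2). Slc46a1, the proximal folate transporter, was at 201, 128, 1132, 388 and 108 normalized counts in Vil-Cre mice 1 to 5, and at 861, 630, 717, 101 and 139 in Vil-Cre:NDI1 mice 1 to 5. Fabp1, a fatty acid binding protein that depends on GATA4 in jejunum, was at 14488 to 17987 in the 5 mice with high Onecut2 and at 3735 to 10227 in the other 5. Both were high in the mice that were high in Onecut2. Slc10a2, the ileal bile acid uptake transporter, was at 199, 561, 6.01, 12.1 and 561 in Vil-Cre mice and at 2.94, 21.0, 7.75, 541 and 220 in Vil-Cre:NDI1 mice. Fabp6, the ileal bile acid binding protein, was at 36.4, 325, 5.01, 0 and 1477 in Vil-Cre mice and at 4.90, 0.911, 0.968, 772 and 201 in Vil-Cre:NDI1 mice. Both ileal genes were low in every mouse with high Onecut2. Slc51a, part of the bile acid exporter, divided the same mice at 1977 to 2434 and 3208 to 4772. Slc10a2 and Fabp6 were picked after their values were seen. The position along the jejunum from which each piece was taken is not given in the sources used here, and its part in these values was not tested.

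With log2 Slc10a2 as a covariate, an alternative chosen after seeing the data, the standard error of the Onecut2 difference fell from 1.07 to 0.23 and its log2 fold change turned to −0.30 (limma adjusted p = 0.918). Hnf4a then had a log2 fold change of 0.20 with a standard error of 0.07 (unadjusted p = 0.0146, adjusted p = 0.83), and Gata6 one of 0.25 with a standard error of 0.10 (unadjusted p = 0.0329, adjusted p = 0.884). Slc10a2 divided the mice into the same sets as Onecut2 and Hnf4a, so smaller standard errors for both follow from the choice of covariate. The unadjusted p of Hnf4a in this fit depends on that choice as well. No factor passed the threshold in this fit either.

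**Figure D4:**
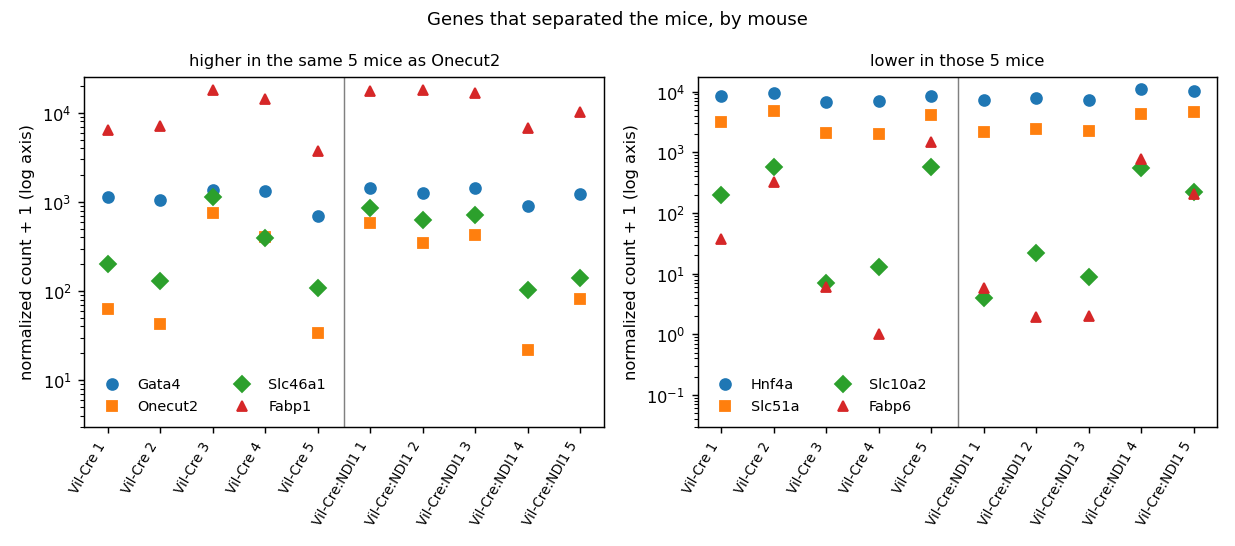
Normalized count + 1 (vertical axes, log scale) of 8 genes in each of the 10 mice, with the Vil-Cre mice left of the grey line. On the left, Gata4, Onecut2, Slc46a1 and Fabp1 are all high in Vil-Cre 3 and 4 and Vil-Cre:NDI1 1, 2 and 3, and on the right, Hnf4a, Slc51a, Slc10a2 and Fabp6 are all low in those mice.

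Some of the factors varied together between mice of a genotype. Correlations were taken on log2(normalized count + 1) centred within genotype over 10 mice, and p came from an exact permutation over all 14400 pairings within genotypes, adjusted over 21 pairs. The 6 pairs with Onecut2 are not counted here, because the mice fall into separate sets on it. The largest r among them were −0.949 with Hnf4a and 0.858 with Gata4. Both had an adjusted p under 0.05 (exact permutation). Of the other 15, 3 passed an adjusted p under 0.05, all positive. This count was 10 with libraries rescaled to equal totals, and the share of pairs of other genes that would pass was not counted. Gata4 and Gata6 had r = 0.926 (exact permutation p = 0.00618, adjusted 0.0324) and rho = 0.77 (exact permutation p = 0.0331, adjusted 0.116). Hnf4g and Gata6 had r = 0.878 (exact permutation p = 0.00465, adjusted 0.0324) and rho = 0.709 (exact permutation p = 0.0517, adjusted 0.121). Hnf4g and Gata4 had r = 0.824 (exact permutation p = 0.00799, adjusted 0.0336) and rho = 0.855 (exact permutation p = 0.00889, adjusted 0.0467), so only this pair passed by rank as well. Without the 2 mice farthest from the median of the first gene, r was 0.561, 0.736 and 0.796 for these pairs. Leaving out Vil-Cre 5 gave r = 0.836, 0.751 and 0.637, with an adjusted p of 0.0927 for each (exact permutation). Without Vil-Cre:NDI1 4 none of the 3 passed either, at an adjusted p of 0.162, 0.166 and 0.181 for Gata4 with Gata6, Hnf4g with Gata6 and Hnf4g with Gata4 (exact permutation). Leaving out Vil-Cre 1 or Vil-Cre 2 raised all 3 to 0.0583 or 0.0635, so the calls are not stable to the loss of a mouse.

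Cdx2 and Hnf4a had r = 0.817 (exact permutation p = 0.0167, adjusted 0.0513) and rho = 0.648 (exact permutation p = 0.0694, adjusted 0.121), just short of the threshold, and r = 0.724 without the 2 farthest mice. Hnf4a and Gata4 ran in opposite directions, with r = −0.708 (exact permutation p = 0.0171, adjusted 0.0513) and rho = −0.879 (exact permutation p = 0.00153, adjusted 0.0107), so that it passed by rank and not by Pearson's r. Leaving out each mouse gave this pair r from −0.907 without Vil-Cre 5 (exact permutation, adjusted p = 0.00486) to −0.582 without Vil-Cre:NDI1 4 (exact permutation, adjusted p = 0.226). The paralogs Hnf4a and Hnf4g had a negative correlation that did not pass after adjustment. It was r = −0.532 (exact permutation p = 0.0891, adjusted 0.134) and rho = −0.673 (exact permutation p = 0.0494, adjusted 0.121). With each mouse left out, r of this pair ran from −0.613 to −0.471. Cdx1 and Cdx2 had r = 0.121 (exact permutation p = 0.746, adjusted 0.783) and rho = −0.0545 (exact permutation p = 0.892, adjusted 0.937). Values of all genes of a mouse come from 1 library and share its size factor.

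**Figure D5:**
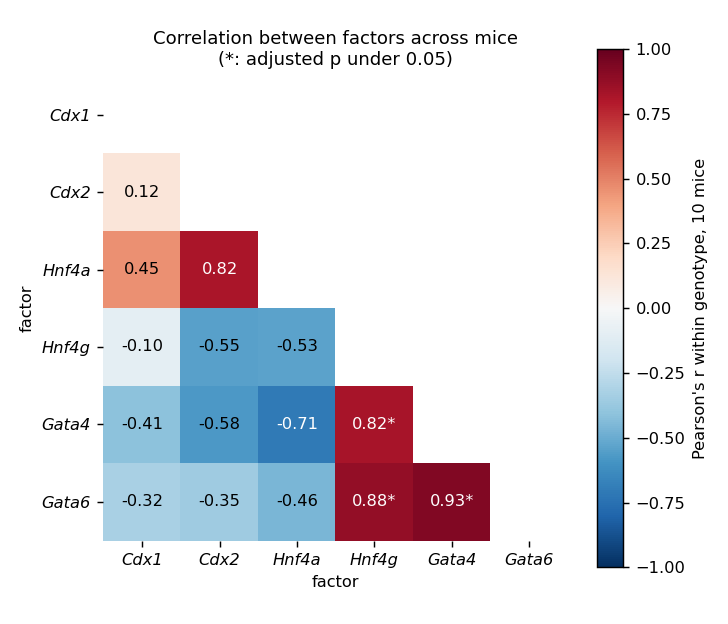
Pearson's r between 6 factors (both axes) across 10 mice, centred within genotype, with red for positive and blue for negative values and an asterisk for an adjusted p under 0.05. The 3 pairs among Hnf4g, Gata4 and Gata6 carry asterisks, and Hnf4a is negative with each of them.

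The genes most like each factor over the 10 mice, by the same centred correlation and as a description, were Sat1 (r = 0.981) and Gdpd1 (0.976) for Hnf4a, and Fam46a (0.982) and Glud1 (0.96) for Hnf4g. Glud1, glutamate dehydrogenase of mitochondria, ran from 5455 in Vil-Cre 5 to 13391 in Vil-Cre 4, the same lowest and highest mice as Hnf4g. Those most like Cdx2 were Eaf1 (r = 0.974) and Creld1 (0.954), and those most like Cdx1 were Zfp69 (0.935) and Tmem241 (0.935). For Gata4 they were Rdh7 (r = 0.986) and Slc37a4 (0.983), a retinol dehydrogenase family member and the glucose 6-phosphate transporter, and for Gata6 they were Nid2 (0.982) and Naprt (0.981). For Onecut2 they were Casp6, at 1510 to 2076 normalized counts in the mice with high Onecut2 and 387 to 802 in the others, and Ccdc114, at 222 to 362 and 112 to 177. All these genes were picked by their correlation in these 10 mice, so sharing high and low mice with their factor follows from that choice.

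Relatives and partners of the factors gave no call after adjustment. Of 8 such genes, 3 could be tested and 0 passed limma (0 at an unadjusted p under 0.05, 0 by DESeq2). Gata5 was at 645 to 1341 normalized counts, and was at most 928 in every mouse with high Onecut2 and at least 937 in the others. Zfpm1, a cofactor of GATA proteins, was at 288 to 816, with the lowest value in Vil-Cre 5, while Zfpm2 was at 1.01 to 8.41. Gata2, known from blood and immune cells, was an exception in overlap: it was at 17.03 to 29.1 normalized counts in controls and 9.39 to 16.5 in Vil-Cre:NDI1 mice, without overlap (background 0.699%), on 8 to 30 reads per library. Its log2 fold change was −0.49 with a standard error of 0.26 (limma, adjusted p = 0.998), and the two-sided exact permutation p of 0.00794, unadjusted, is the smallest possible. Gata3, a factor of T cells, was at 4.04 to 128. Cdx4 had no read, Onecut1 had a read in Vil-Cre 1 alone and Gata1 reached 1.82.

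Of 22 other epithelial transcription factors, all tested, 0 passed limma, 2 had an unadjusted p under 0.05 (background 4.24%), and the median log2 fold change was −0.01 beside 0.01 over all genes tested. Creb3l3, a regulator of lipid genes, had 5904 ± 655 normalized counts in controls and 7501 ± 691 in Vil-Cre:NDI1 mice (SD, n = 5 each), a log2 fold change of 0.35 with a standard error of 0.10 (limma, unadjusted p = 0.00421, adjusted p = 0.998). Prox1 had a log2 fold change of −0.65 with a standard error of 0.27 (limma, adjusted p = 0.998). The most abundant of the list were Maf at 5813 to 9121 normalized counts, Klf4 at 2939 to 5855 and Esrra at 2888 to 4158, beside Creb3l3 at 5304 to 8507.

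Among genes known to depend on the factors, 0 of 12 CDX targets, 0 of 13 HNF4 targets and 0 of 9 GATA4 targets passed limma, with 0, 1 and 0 at an unadjusted p under 0.05 and 0 called by DESeq2. Their median log2 fold changes were 0.10, 0.23 and 0.18, with 9, 13 and 9 genes above 0. Over all genes tested the median was 0.01 and 7319 of 14301 were above 0. Without Vil-Cre 5 the medians were 0.02, 0.12 and 0.04. The lists share genes (Apoa1, Apoa4, Apob, Fabp1 and Lct among them), and most are enterocyte genes: the 11 enterocyte markers had a median of 0.23, all above 0, and 0.12 without Vil-Cre 5. The part of the lower enterocyte level of Vil-Cre 5 in the target values was not tested. The 3 most abundant genes of each list were, in all, Apoa1 at 76096 to 134760 normalized counts, Apoa4 at 48578 to 175027, Apob at 52470 to 88550, Sis at 32732 to 61521, Vil1 at 35067 to 49249 and Lct at 6088 to 31347. The lowest value of each of these but Vil1 was in Vil-Cre 5, and the smallest p among CDX targets was that of Abcb1a, with a log2 fold change of 0.71 and a standard error of 0.37 (limma, unadjusted p = 0.0829, adjusted p = 0.998).

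Regional genes did not differ between the genotypes either: 0 of 8 duodenal, 0 of 7 ileal, 0 of 1 colonic, 0 of 1 gastric and 0 of 11 Hox genes tested passed limma, with 0 at an unadjusted p under 0.05 in each list and 0 called by DESeq2. Their medians were 0.02, −0.07, 0.11, −0.26 and −0.01. Slc11a2 and Heph, iron transport genes of the duodenum, were at 556 to 913 and 3367 to 4876 normalized counts, and Muc6 was at 8.22 to 28.3. Slc51b, the partner of Slc51a, was at 662 to 1764, and Cubn and Amn, which together take up vitamin B12, at 4598 to 9449 and 2015 to 3928. The anterior Hox genes Hoxa3, Hoxa5, Hoxb3 and Hoxb4 were at 6.86 to 83.2, 38.4 to 78.1, 16.6 to 45.6 and 32.3 to 63.4. Aqp8 reached 15.03 in Vil-Cre 3, and Gkn3, Atp4a and Gif reached at most 17.03, 22.8 and 5.01.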

How the data were processed

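Whole jejunum was profiled in 10 mice, 5 of each genotype. The authors ran nf-core/rnaseq 3.12.0, trimmed single-end reads with trimGalore! 0.6.7, aligned them to GRCm38 with the NDI1 sequence by STAR 2.6.1d, assigned them to genes with Salmon 1.10.1 and divided them by size factors in DESeq2 1.46.0 (R 4.4.0). The deposited values are thus a signal, normalized counts, and in each library 100% of the values above 0 could be turned back into whole reads. The 45707 rows include 45143 identifiers found in the GENCODE M21 annotation, whose exons gave the lengths, and 0 columns were left unused.

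The members, the gene lists and the rule for named genes were chosen with earlier results of these data known. The rule takes the 9 factors, NDI1, 8 family members and cofactors, the 3 most abundant genes and the 1 with the smallest p of each target and regional list, the 4 most abundant and the 2 with the smallest p of the other transcription factors, and the 2 genes most correlated with each tested factor. Fits used limma 3.58.1 in R 4.3.3 (pseudocount 1, eBayes with a variance trend, minimum 10 in 5 mice, threshold 0.05), with DESeq2 1.42.0 and edgeR 4.0.16 on recovered reads as alternatives. Scripts in Python 3.11.15 with SciPy 1.17.1 ran exact permutation tests, and the fits were tested on simulated data. A floor of 3 reads covers counting error only. Replicates of the same number did not deviate together (r from −0.116 to 0.136). Alternatives were other pseudocounts, filters, scalings and models, and each mouse left out. Some genes of these lists are not reported here.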

Additional observations from a re-analysis of the deposited data

Results flagged for a closer look

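Of 114 groups of 5 mice examined among the factors and named genes, 8 held a mouse whose gap to its nearest neighbour exceeded Dixon's 95% critical share of the range (0.71), where chance alone flags about 1 in 20, or 5.7 groups. None of the 9 factors was among them, since Onecut2 varied as sets of mice rather than as a single mouse. Among relatives, Gata3 stood at 66.8 normalized counts in Vil-Cre 2 (others 4.04 to 14.6) and at 128 in Vil-Cre:NDI1 3 (others 4.56 to 14.7), and Gata2 at 29.1 in Vil-Cre 5 (others 17.03 to 18.6). Slc46a1 stood at 1132 in Vil-Cre 3 (others 108 to 388). Nid2, the gene most like Gata6, stood at 115 in Vil-Cre:NDI1 4 (others 154 to 161). Vil1 and Amn were highest in Vil-Cre:NDI1 5, at 49249 (others 41252 to 43428) and 3928 (others 2311 to 2699). Aqp8 stood at 15.03 in Vil-Cre 3 (others 0 to 1.87).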

How the results depend on the processing

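The count of factors past the threshold was 0 in the fit as reported and in all 22 alternatives, and the replicate block, which pairs mice that only share a number, also gave 0, with Gata6 losing its unadjusted p under 0.05, as it did without Vil-Cre:NDI1 2, 3 or 5. Gata6 kept a positive log2 fold change in all 22 alternatives (0.19 to 0.35) and an unadjusted p under 0.05 in 18. Cdx1 stayed negative in all (−0.20 to −0.11). The sign of Cdx2 turned with libraries rescaled to equal totals (−0.0465) and with array weights (−0.0369), and leaving out each mouse gave −0.0795 to 0.1049. For Hnf4g, leaving out each mouse gave −0.0037 to 0.2899, the lowest without Vil-Cre 5. Onecut2 turned to −0.2979 with Slc10a2 as a covariate, and ran from 0.02 without Vil-Cre 5 to 1.24 without Vil-Cre:NDI1 4. The count of correlated pairs apart from those with Onecut2, 3 as reported, was 10 with equal totals, for which the cause was not tested. With each mouse left out it was 0 to 4: 1 without Vil-Cre 1, 2, 4 or 5, and 0 without Vil-Cre:NDI1 4. The single pair was Cdx2 with Hnf4a when Vil-Cre 1 was out, and Hnf4g with Gata4 when Vil-Cre 4 was out. When Vil-Cre 2 or Vil-Cre 5 was out, it was Hnf4a with Gata4, at a negative r. Leaving out any mouse made fewer pairings possible. Of the list medians, 526 comparisons stayed within their spread and 2 moved (B and plasma cell markers, tuft markers). Rare factors were limited by depth: Onecut3 and Pdx1 had at most 9 reads per library.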
